A study of Mus musculus with 16 samples.

Results

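ATRX-dependent heterochromatin nanodomains (HNDs) in gene deserts were the H3K9me3 regions of the mouse list that lay far from every gene. A member lay on chromosomes 1 to 19 with the nearest GENCODE M1 gene record of any type, on either side, at least 200 kb away from edge to edge. The rule took 1002 of the 11899 autosomal HNDs, or 8.42% (95% Wilson interval 7.94% to 8.93%, which covers counting error only), and the whole list held 13113. The other 10897 autosomal HNDs are called the rest of the list, of which 3652 overlapped a gene record and 7245 lay outside genes but nearer than 200 kb.

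The list came from ChIP-seq of mouse embryonic stem cells (ESCs), in which DNA bound by an antibody is sequenced. The wild-type (WT) line wt26 was compared with *Atrx* knockout (KO) lines KO1-40 and KO1-45, with 2 libraries a genotype for each of H3K9me3, H3, IgG and input, 16 in all. All cells grew with LIF and serum and without further treatment, and the labels leave the KO line of each KO library unnamed. The list is 1 pooled table of the positions of regions with a WT peak and no KO peak, with no score, height or value per library. It therefore carries neither depth nor replicate error, and the autosome is the unit of the tests.

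H3K9me3 is a histone mark of silenced chromatin and is read by HP1 proteins. ATRX is a chromatin remodeler that, with DAXX, deposits the histone variant H3.3 at telomeres, pericentromeric repeats and transposable elements, and its loss lowers H3K9me3 at a share of these sites. Gene deserts are long stretches without genes that are poor in G and C bases, and they often flank genes of development and of cell adhesion in the nervous system.

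The sequences below are chosen examples of desert HNDs. Words of 24 bases were chosen in turn, each for being in the most desert HNDs that held none of the words before it. Each is shown, in capitals, inside the narrowest desert HND of at most 300 bp that held it. A pair of HNDs in which every 50-base word occurs once in the genome is shown for contrast, without capitals. Their most frequent 24-base words have 47 and 2 copies. All are mm9, plus strand, 5′ to 3′, and all lie between genes.
Word 1, chr3:43521564-43521801: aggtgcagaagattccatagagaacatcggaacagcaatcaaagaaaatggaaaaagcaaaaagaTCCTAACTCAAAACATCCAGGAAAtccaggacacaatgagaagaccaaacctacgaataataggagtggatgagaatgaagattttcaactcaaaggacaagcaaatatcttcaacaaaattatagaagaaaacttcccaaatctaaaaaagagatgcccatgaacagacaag
Word 2, chr5:127420778-127420922: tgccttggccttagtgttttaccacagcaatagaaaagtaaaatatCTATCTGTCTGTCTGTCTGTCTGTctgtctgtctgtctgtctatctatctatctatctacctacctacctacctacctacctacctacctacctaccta
Word 3, chr10:113391905-113392068: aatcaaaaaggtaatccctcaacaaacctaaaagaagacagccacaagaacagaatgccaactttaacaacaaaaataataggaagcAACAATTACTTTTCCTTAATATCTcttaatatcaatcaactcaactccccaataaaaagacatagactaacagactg
Word 4, chr1:103151799-103151957: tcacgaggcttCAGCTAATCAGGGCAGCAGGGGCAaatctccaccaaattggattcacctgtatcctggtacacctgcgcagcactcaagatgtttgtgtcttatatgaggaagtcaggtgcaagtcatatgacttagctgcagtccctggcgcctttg
Word 5, chr17:16527097-16527133: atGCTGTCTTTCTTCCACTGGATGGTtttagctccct
HND with single-copy 50-base words, chr8:99471075-99471361: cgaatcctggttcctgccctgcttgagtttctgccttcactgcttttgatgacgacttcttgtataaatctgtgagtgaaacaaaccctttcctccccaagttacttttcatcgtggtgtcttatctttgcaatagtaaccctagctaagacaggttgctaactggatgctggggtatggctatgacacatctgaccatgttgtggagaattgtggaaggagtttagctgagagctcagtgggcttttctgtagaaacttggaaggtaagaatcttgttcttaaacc
HND with single-copy 50-base words, chr13:71647712-71647990: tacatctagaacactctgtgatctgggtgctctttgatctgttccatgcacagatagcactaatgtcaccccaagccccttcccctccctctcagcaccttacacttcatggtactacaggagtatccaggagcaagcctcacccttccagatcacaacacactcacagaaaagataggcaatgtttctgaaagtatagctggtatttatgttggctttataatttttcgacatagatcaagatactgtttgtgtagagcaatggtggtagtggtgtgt

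Word 1 was in 47 desert HNDs on 16 autosomes and has 8478 copies in mm9. It was in 4.69% of desert HNDs and in 162 HNDs of the rest (1.49%), and in 2 of 2002 flanking windows of the same widths placed 10 kb from the desert HNDs. Its desert carriers were wide, with a median of 1178 bp, and poor in G+C (39.2%). Word 2 is nearly a tandem of a 4-base unit, with 1224 copies. It was in 33 desert HNDs (3.29% against 1.49% in the rest), which had a median width of 258 bp. Word 3 was in 34 desert HNDs (3.39% against 1.53%) and has 13991 copies, and 14 of the flanking windows held it. Word 4 was in 25 desert HNDs (2.50% against 1.82%), whose mean G+C content of 51.0% was the highest among the carriers of these words. Word 5 was in 19 desert HNDs (1.90% against 0.945%) and has 13335 copies. Together the 5 words were in 150 desert HNDs (15.0%). They were picked for being frequent in desert HNDs, so the shares are a description with no test.

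Gene deserts held as many ATRX-dependent HNDs as their length would give. They made up 201.773 Mb of sequence, 8.43% of the autosomes, and had 4.97 HNDs per Mb, against 4.97 per Mb in the other 2191.95 Mb. Averaged over every possible placement of each HND on its own chromosome, 1010.4 ± 30.1 (SD of the placements) would fall in deserts, so the observed number was 0.992 of that. On the 15 autosomes with at least 5 Mb of desert, the density differed by -0.051 ± 0.928 HNDs per Mb (SD, n = 15) and was higher in deserts on 7 of them (exact two-sided sign-flip permutation test over autosomes, p = 0.831, adjusted p = 0.868 over 13 tests). Desert density ranged from 3.55 per Mb on chromosome 16 to 7.18 per Mb on chromosome 8, with a median of 4.85. The desert over other ratio ran from 0.765 on chromosome 17 to 1.36 on chromosome 6.

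**Figure D1:**
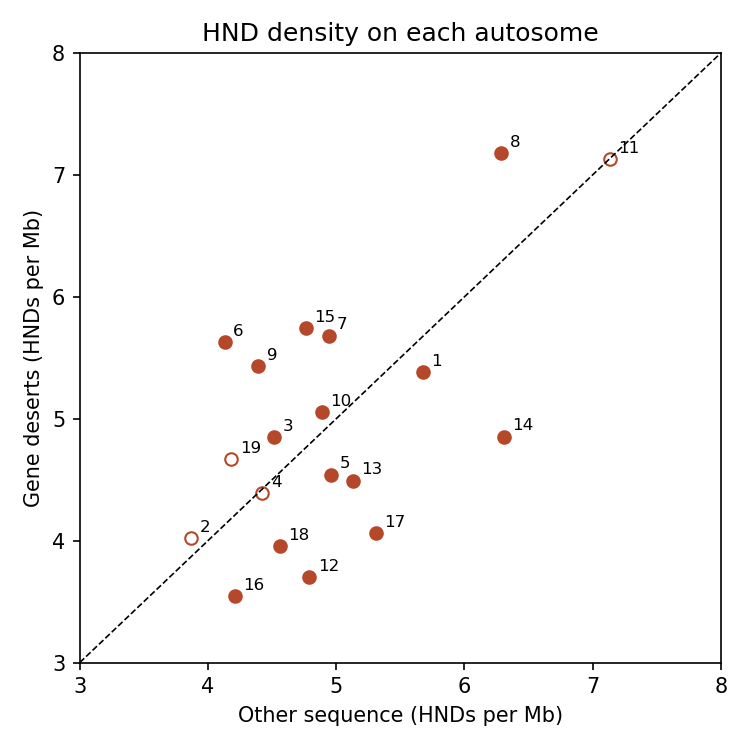
HNDs per sequenced Mb in gene deserts (vertical axis) against other sequence (horizontal axis), 1 point per autosome, labelled by number. Filled points are the 15 autosomes with at least 5 Mb of desert, open points the others, and the dashed line marks equal density. Points lie on both sides of the line, with chromosome 8 highest at 7.18 per Mb in deserts.

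The density was not the same at every distance. HNDs were sparsest inside genes, at 3.65 per Mb, and densest within 50 kb of a gene, at 6.26 per Mb. From there the density was 6.04 per Mb at 50 to 100 kb and 5.46 at 100 to 200 kb. Inside deserts it was 4.95 per Mb at 200 to 400 kb (691 HNDs), 4.98 at 400 to 800 kb (285 HNDs) and 5.21 at 800 kb or more, where 26 HNDs left a 95% Poisson interval of 3.40 to 7.64. Set against intergenic sequence nearer to genes alone, which had 6.08 HNDs per Mb, the desert density was 0.816 times as high and lower on 14 of 15 autosomes (exact sign-flip permutation test, adjusted p = 0.000793). Which sequence the deserts are compared with thus changed the call.

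**Figure D2:**
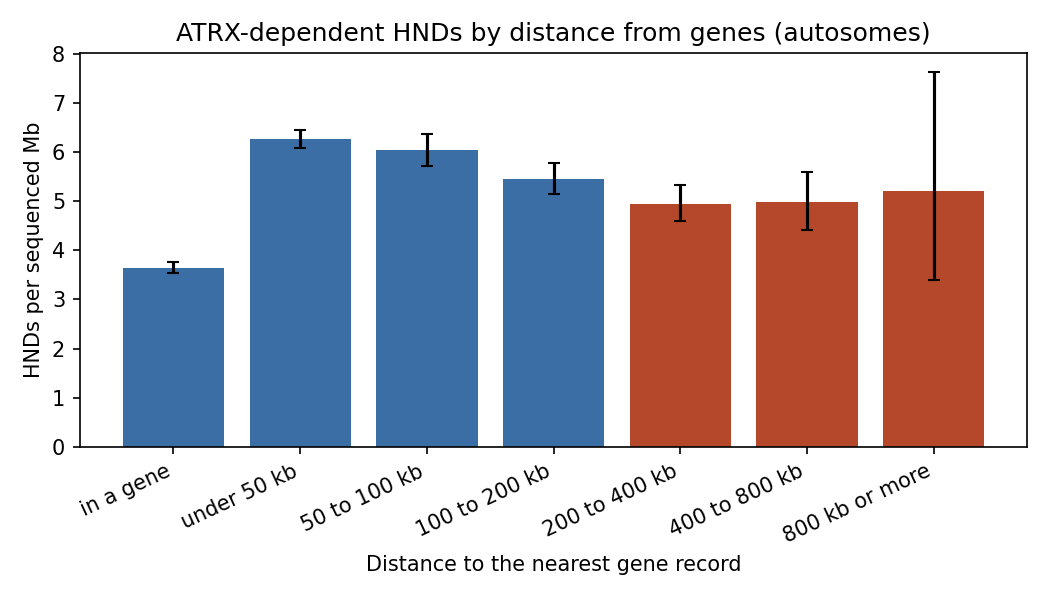
Bars show HNDs per sequenced Mb of autosome by distance to the nearest gene record, blue for the rest of the list and red for gene deserts, with 95% Poisson intervals that cover counting error only. Density is 3.65 per Mb in genes, 6.26 within 50 kb, and close to 5 in the desert classes.

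Deserts differed from other sequence in base composition. Their G+C content was 38.2%, against 42.3%, and 61.0% of desert sequence fell in the lowest of 5 classes of 50 kb windows, those below 38.2% G+C. In that class deserts had 4.40 HNDs per Mb and other sequence 3.88. In every class the density was higher in deserts, most in the fourth class (8.63 against 5.70 per Mb, 87 desert HNDs). Weighted to the composition of the deserts, the density ratio was 1.14, and 0.967 when only sequence outside genes was compared, both without a test.

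Desert HNDs were narrower than the rest. Their median width was 357 bp (quartiles 205 to 674.25 bp), against 424 bp in the rest, 406 bp in the rest outside genes and 458 bp in genes. The mean log2 width was lower by autosome, with a difference of -0.21 ± 0.158 (SD, n = 19), and lower on 18 of 19 autosomes (exact sign-flip permutation test, adjusted p = 3.31e-05). HNDs under 200 bp made up 23.7% of desert HNDs (237) and 20.2% of the rest, and HNDs of 2000 bp or more made up 1.40% (14) and 2.89%. The longest of the 1002 desert HNDs had 3034 bp. In the larger groups of the rest, the longest of the 7245 outside genes had 5030 bp and the longest of the 3652 in genes 12904 bp. The narrowest entries of the deserts and of the rest had 1 bp, below the size of a nucleosome. The difference was -0.12 when HNDs under 200 bp were left out and -0.12 with deserts starting at 100 kb, called in both. It was no longer called among HNDs with at least 90% single-copy 50-base words, those found once in mm9 (difference -0.0977, adjusted p = 0.414 in the same permutation test) or for deserts starting at 500 kb (-0.00406, adjusted p = 0.987, 12 autosomes).

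**Figure D3:**
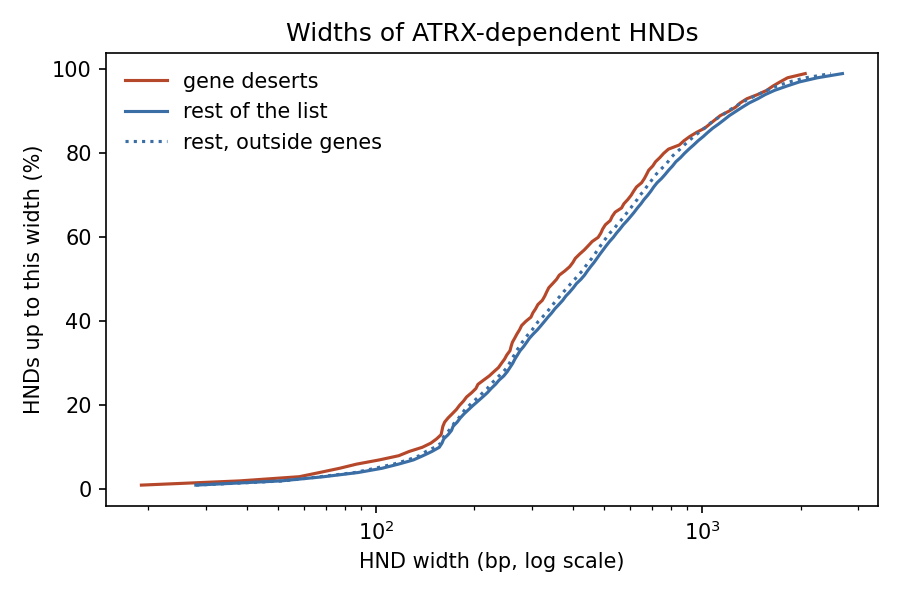
Cumulative share of HNDs (vertical axis, %) up to each width (horizontal axis, bp on a log scale) for gene deserts, the rest of the list and the rest outside genes, from the 1st to the 99th percentile. The desert curve lies to the left, with medians of 357, 424 and 406 bp.

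The widest desert HND, chr14:9984552-9987585 (mm9, 3034 bp), lay between the pseudogene Gm9800 and *Fhit*, which encodes a diadenosine triphosphate hydrolase. All of its 50-base words occur once, and its G+C content of 43.4% was close to the 43.5% of its flanks. The next, chr14:114275341-114278165 (2825 bp), had 35.6% such words and a word with 16634 copies. The third, chr8:17888168-17890830 (2663 bp), lay 352.582 kb from *Csmd1*, which encodes a complement regulator of the brain. The HND farthest from any gene, chr14:81533292-81533820 (529 bp), was 1110.62 kb from *Olfm4*, an olfactomedin gene and marker of intestinal stem cells. The others past 1 Mb that the rule names were chr10:15773456-15773720, 1062.89 kb from a U6 record, and chr1:144272832-144273839, 1061.79 kb from a Y RNA record on one side and 1172.09 kb from *Cdc73*, a subunit of the PAF1 complex, on the other. The median distance of desert HNDs was 309.814 kb. Just inside the 200 kb limit lay chr9:17244398-17244612 (200.228 kb) and chr11:9838015-9838218 (200.391 kb), and just outside it chr14:99959945-99960428 (199.899 kb) and chr7:83218905-83219920 (199.889 kb).

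Desert HNDs were richer in G+C than the sequence around them. They had 43.9% ± 6.43 G+C (SD over 1002 HNDs), and the windows 10 kb to either side had 38.7%. The difference by autosome was 4.88 ± 1.08 percentage points (SD, n = 19), above 0 on 19 of 19 (exact sign-flip permutation test, adjusted p = 3.31e-05), and 75.5% of desert HNDs were above their flanks. The rest had 45.6% ± 5.98, and desert HNDs were lower by autosome, at -1.81 ± 0.875 points, on 18 of 19 autosomes (adjusted p = 3.31e-05 in the same permutation test), a call that was lost for deserts starting at 500 kb (-1.37 ± 3.33 points, permutation over 12 autosomes, adjusted p = 0.241). The excess over flanks went the other way. It was 5.20 points in deserts and 3.33 in the rest, a difference by autosome of 1.51 ± 1.11 that was above 0 on 17 of 19 (adjusted p = 0.000116 in the same permutation test). The excess grew from 2.98 points in genes to 5.91 points at 400 to 800 kb, and was 4.51 at 800 kb or more. Among HNDs with at least 90% single-copy words the excess difference was 0.924 points and not called (permutation, adjusted p = 0.104), and for deserts starting at 500 kb it was 3.17 points (permutation over 12 autosomes, adjusted p = 0.0215). CpG content, as observed over expected, was 0.218 in desert HNDs and 0.224 in the rest, with 0.156 and 0.193 in their flanks, and the difference between the groups was not called (exact permutation, adjusted p = 0.739). Among HNDs with at least 90% single-copy words it was called, at -0.0363, lower on 15 of 18 autosomes (permutation, adjusted p = 0.0163).

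**Figure D4:**
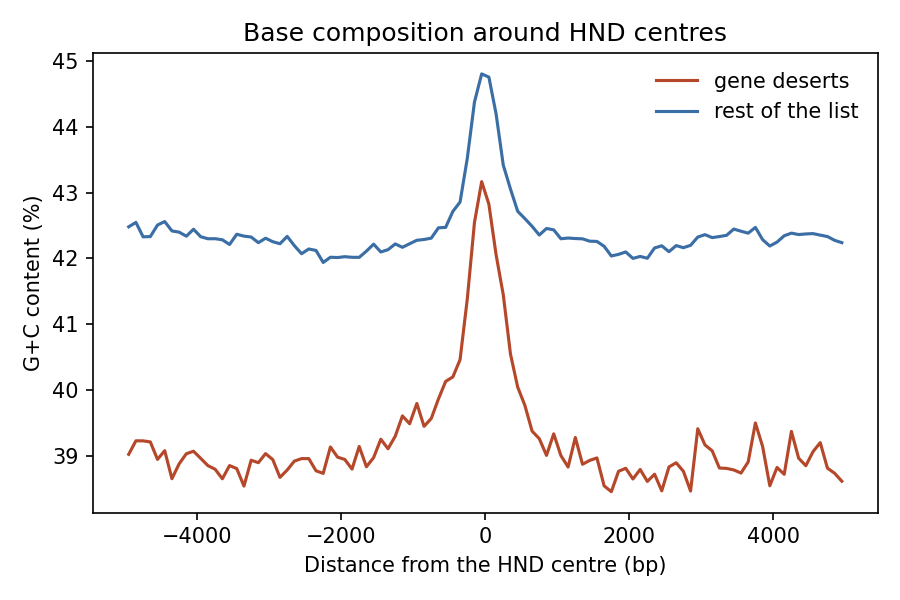
Mean G+C content (vertical axis, %, not starting at 0) in 100-bp bins from 5 kb before to 5 kb after the HND centre (horizontal axis, bp), for gene deserts and the rest of the list. Both curves peak at the centre, at 43.2% in deserts and 44.8% in the rest, and the desert curve starts from the lower level, near 39%.

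Desert HNDs held more multi-copy sequence than the rest. On average 63.2% of their 50-base words occur once in mm9, against 71.3% in the rest, while the flanks were nearly equal at 86.4% and 86.7%. The difference by autosome was -8.83 ± 6.02 points (SD, n = 19), lower on 18 of 19 (exact sign-flip permutation test, adjusted p = 0.000109). A word of 24 bases with at least 100 copies was in 802 desert HNDs, 80.0% (Wilson 77.5% to 82.4%), against 70.7% of the rest and 47.7% of the desert flanks. The difference was 10.2 ± 6.38 points, higher on 17 of 19 autosomes (adjusted p = 4.96e-05 in the same permutation test). Counted as an excess over each group's own flanks it was 8.86 points (permutation, adjusted p = 0.000901), and among HNDs of 200 to 1000 bp it was 10.9 points (adjusted p = 0.000554). The call was lost for deserts starting at 500 kb (13.2 points, permutation, adjusted p = 0.0732) and among HNDs with at least 90% single-copy 50-base words (0.492 points, permutation, adjusted p = 0.907). Words with at least 1000 copies were in 567 desert HNDs (56.6%) and in 45.7% of the rest. HNDs made of single-copy 50-base words alone were 224 (22.4%) in deserts and 36.2% in the rest. HNDs without any such word were 91 (9.08%) in deserts and 9.20% in the rest, and both shares are given without a test.

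**Figure D5:**
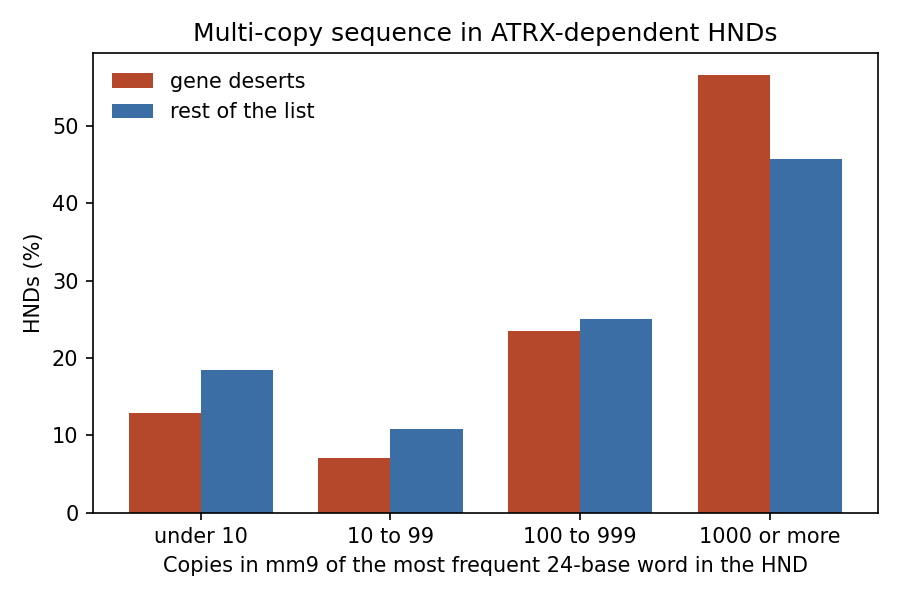
Share of HNDs (vertical axis, %) by the number of mm9 copies of the most frequent 24-base word in the HND (horizontal axis), for gene deserts and the rest of the list. The class of 1000 or more copies holds 56.6% of desert HNDs and 45.7% of the rest, and the other classes hold a smaller share of desert HNDs.

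The desert HNDs of these classes were not alike. The 235 whose most frequent word had at least 100 but fewer than 1000 copies stood 7.85 points of G+C above their flanks, with 46.5% G+C, and the 567 with 1000 copies or more stood 4.28 points above, with 42.3% G+C. The 71 with at least 10 but fewer than 100 copies stood 7.03 points above, with 47.2% G+C, and the 129 with fewer than 10 copies stood 3.41 points above. Median widths were 378, 304, 327 and 384 bp from the lowest to the highest class. When only HNDs with at least 90% single-copy words were kept, 354 desert HNDs remained and their density was 0.692 of that elsewhere (exact sign-flip permutation test over 15 autosomes, adjusted p = 0.00264). Weighted to the G+C composition of the deserts, the ratio of these HNDs was 1.17, the opposite direction, without a test. The authors kept uniquely mapped reads, and its part in these values was not tested.

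TTAGGG, the telomere repeat unit and a sequence that ATRX is known to bind, was searched on both strands. It was in 165 desert HNDs (16.5%, Wilson 14.3% to 18.9%) and in 20.4% of the rest. The difference by autosome was -3.95 ± 4.29 points, lower on 15 of 19 (exact sign-flip permutation test, adjusted p = 0.00121). The flanking windows differed in the same direction, 16.1% for desert HNDs and 19.7% for the rest. As an excess over flanks the difference was -0.47 points and was not called (permutation, adjusted p = 0.862), nor was it among HNDs of 200 to 1000 bp (-2.86 points, adjusted p = 0.19). It turned to 3.33 points higher in deserts among HNDs with at least 90% single-copy words, where it was not called (permutation, adjusted p = 0.268). The call was also lost for deserts starting at 100 kb (-1.35 points, permutation, adjusted p = 0.0826) and at 500 kb (-7.39 points, permutation, adjusted p = 0.0703). The word stood more than once in 29 of the 1002 desert HNDs and in 485 of the 10897 others, given without a test.

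A G-quadruplex pattern, 4 runs of at least 3 G with loops of 1 to 7 bases on either strand, can fold into a four-stranded structure to which ATRX has been linked. It was in 67 desert HNDs (6.69%) and in 6.74% of the rest, against 7.09% and 9.45% of their flanks. The difference by autosome was -0.14 ± 3.61 points (exact permutation, adjusted p = 0.868). For deserts starting at 100 kb it was -1.01 points and at 500 kb -3.53 points, not called in either (permutation, adjusted p = 0.104 and 0.0732). With at least 90% single-copy words it was 3.11 points, also not called (permutation, adjusted p = 0.303). Tandem words of units up to 6 bases were in 91 desert HNDs (9.08%) and in 9.75% of the rest. By autosome the difference had the other sign, 1.15 ± 5.78 points, higher in deserts on 10 of 19 (exact permutation, adjusted p = 0.528). The leading units were AGAT in 43 desert HNDs (4.29%, rest 2.74%) and ACAG in 33 (3.29%, rest 1.94%), read on both strands and described without a test. A word repeated inside the HND was found in 64 (6.39%, rest 7.76%, permutation, adjusted p = 0.325). Another HND lay within 10 kb of 204 desert HNDs (20.4%) and of 20.2% of the rest. By autosome the difference had the other sign, -2.30 ± 10.9 points, lower in deserts on 11 of 19 (exact permutation, adjusted p = 0.528). The nearest HND was a median of 56.4 kb away, against 50.1 kb.

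HNDs were spread over many deserts. Of 652 stretches that lay at least 200 kb from any gene record, 364 (55.8%) held an HND. Of these, 127 held 1, 182 held 2 to 4 and 55 held 5 or more, and the last held 397 HNDs. Stretches without an HND were short, with a median of 0.0803 Mb against 0.349 Mb. Among the 34 stretches of 1 Mb or more, 1 had no HND, and densities ran from 0 to 10.9 per Mb with a median of 4.39.

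The stretch with the most HNDs, chr8:30529810-31999943, held 16 in 1.47 Mb between *Unc5d*, a netrin receptor of axon guidance and neuronal migration, and the phosphatase gene *Dusp26*. Its widest were chr8:31611403-31613855 (2453 bp, all words single-copy), chr8:31180242-31181515 (1274 bp, 88.6% single-copy words) and chr8:31094612-31095789 (1178 bp, 4.58% single-copy words). The last had 49.2% G+C, against 36.1% in its flanks. A stretch on chromosome 7 with *Svip* and *Luzp2* as nearest protein-coding genes held 13. A stretch of 1.96 Mb on chromosome 14 and one on chromosome 3 held 12 each. Their nearest protein-coding genes were *Olfm4* and *Pcdh17* for the former and *D3Ertd751e* and *Pcdh10* for the latter, with a U1 and a 7SK record nearer on the right. A stretch on chromosome 8 beside *Cdh5*, the cadherin of endothelial cells, held 11, and one on chromosome 1 beside *Cntnap5a* held 10. A short stretch of 0.328 Mb on chromosome 5 beside *Tmem132c* held 10, or 30.5 per Mb. Apart from the first, these stretches were named for their high counts, after these were seen.

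Deserts were grouped by the family of their nearest protein-coding genes. Those beside cadherin genes (*Cdh*), whose products join cells, numbered 23 and held 76 HNDs in 13.1 Mb, 5.80 per Mb, with a median width of 507 bp. Those beside protocadherin genes (*Pcdh*) numbered 24 and held 57 in 12.8 Mb, 4.46 per Mb and a median of 346 bp. Those beside contactin and contactin-associated genes (*Cntn*), whose products act at axons and synapses, numbered 17 and held 50 in 8.47 Mb, 5.90 per Mb. All desert sequence had 4.97 per Mb. Deserts beside zinc finger genes (*Zfp*) held 9 HNDs in 1.36 Mb, those beside *Sox* transcription factor genes 9, *Slitrk* synaptic genes 6, *Irx* homeobox genes 5, *Lrrn* genes 2, and *Fox* and *Olfr* genes 1 each. The single desert beside an *Lrrtm* gene held 0, and no desert lay beside a *Vmn* pheromone receptor gene. These values are descriptions with no test.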

How the data were processed

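The authors sequenced 50-bp single-end reads of MNase-digested and sonicated chromatin, mapped them with Bowtie2 to mm9, kept unique reads with up to 2 mismatches, called broad MACS2 peaks against input and kept WT regions without a KO peak. No version is given in the sources used here, nor is the overlap that counted as absent. They deposited 1 pooled list of positions in bp, without counts, scores or other values, so the list itself gives neither depth nor replicate error, and 0 of its columns hold single libraries.

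Starts were counted from 1. Distances used GENCODE M1 on NCBIM37 (mm9). Density is HNDs per Mb without unknown bases. Flanks were windows of the HND's width 10 kb away. Copies of words starting in an HND were counted over both strands of mm9. The copy counts and the choice of 24-base words left out tandem words of units up to 6 bases. Desert and rest were compared on each autosome with at least 5 desert HNDs (5 Mb of desert for density) by exact two-sided sign-flip permutation, Benjamini-Hochberg adjusted over 13 tests (threshold 0.05). For deserts starting at 500 kb, density had no test and the adjustment covered the remaining tests. With 19 autosomes the smallest p is 3.8147e-06. All autosomes share cells and libraries, so p-values measure the spread between autosomes of this list alone. The expected number was averaged over every placement, and no random sets were drawn. Intervals cover counting error only.

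HNDs named were the 3 widest, the 3 farthest from genes, the 3 widest in the desert with most HNDs and the 2 on either side of the limit. The members and lists were chosen with earlier results of these data known. Tandem and inner-repeat words, excess over flanks for words and the 200 to 1000 bp limit were added after values were seen. The searches and the test were tested on simulated data. Other alternatives were other distances, joined or narrow HNDs, protein-coding genes only, sequence outside genes, single-copy HNDs and leaving out autosomes. The share of soft-masked bases was planned but not run, because the sequence given has 0 lower-case bases. Repeat families and the libraries' signals were not analysed here. Python 3.11.15, numpy 2.4.6, numba 0.67.0, scipy 1.17.1 and matplotlib 3.10.9 were used.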

Additional observations from a re-analysis of the deposited data

Results flagged for a closer look

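The sex chromosomes were outside the comparison and also held HNDs in gene deserts. Chromosome X had 5 in 1.78 Mb of desert, 2.80 per Mb against 6.46 per Mb in its other sequence, with a median width of 295 bp and 11.2% of their 50-base words single-copy. Chromosome Y had 9 in 0.265 Mb, 33.9 per Mb against 67.7, with a median width of 565 bp and 71.5% of their 50-base words single-copy. Both are given as values without a test.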

How the results depend on the processing

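Of 146 alternatives of 15 results, 108 were counted as keeping the direction and, where a test was run, the side of the threshold. Leave-one-out ranges that crossed no difference were not counted there, though their lower ends kept both, for density (0.981) and the G-quadruplex pattern (-0.563 points). The 108 also include the number of desert HNDs, which has neither, at 973 with HNDs within 1 kb joined and 765 without those under 200 bp. This number was 2119 at 100 kb, 171 at 500 kb, 2233 with protein-coding genes only and 354 with at least 90% single-copy words. The density ratio became called at 0.816 outside genes and 0.692 with at least 90% single-copy words, and the ratio standardised for G+C turned to 0.967 outside genes but was 1.17 with at least 90% single-copy words. Values that were not called changed sign without becoming called: the density ratio at 100 kb (1.06), per Mb of unique sequence (1.02) and with protein-coding genes only (1.01), CpG at 500 kb (0.0401), outside genes (0.000677) and with protein-coding genes only (0.00954), the G-quadruplex pattern without HNDs under 200 bp (0.361 points), on the forward strand (0.229), outside genes (0.206) and with at least 90% single-copy words (3.11), tandem words at 500 kb (-3.53) and with protein-coding genes only (-0.217), and, with at least 90% single-copy words, neighbours (0.308) and inner repeats (1.76). With at least 90% single-copy words, calls were lost for width (-0.0977 log2), G+C excess (0.924 points), words of at least 100 copies (0.492 points) and single-copy words (-0.385 points), the last by construction, since the filter uses the same 50-base words, while CpG became called (-0.0363) and TTAGGG turned to 3.33 points. At 500 kb, with fewer HNDs, calls were lost for width (-0.00406 log2), G+C (-1.37 points), words of at least 100 copies (13.2 points) and TTAGGG (-7.39 points), and density had no test, with 2 autosomes of enough desert. TTAGGG also lost its call at 100 kb (-1.35 points), as an excess over flanks (-0.47 points) and among HNDs of 200 to 1000 bp (-2.86 points). The cause was not tested for the others. Leaving out each autosome in turn moved the density ratio between 0.981 and 1.02 and the G-quadruplex difference between -0.563 and 0.216 points, and changed no call. No paired analysis was possible because the pooled list has no values per replicate, and for the same reason no replicate could be left out. The list gives no depth, so faint HNDs cannot be told from strong ones.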
